A study of Homo sapiens with 26 samples.

Results

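Azacytidine-treated TET2 knockout (KO) cells were set against untreated wild-type (WT) cells at 264 h, to ask which genes of the KO cells sat at, short of or beyond the WT level after the drug. The comparison held 4 of the 26 libraries of the series: KO clones F4 and A12 given 200 nM 5-azacytidine (Aza) daily for 3 days, and WT clones A7 and C4 given the vehicle dimethylsulfoxide (DMSO). All were taken by label, from batch 1, at 264 h after the first dose. All are TF-1, an established human erythroleukemia line that needs the cytokine GM-CSF, with genotype TET2 -/- in F4 and A12 and TET2 +/+ in A7 and C4. The other 4 libraries of that time and batch, KO clones in DMSO and WT clones in Aza, gave the starting point of the KO cells and the response of WT cells. Each genotype is 2 clones of 1 line, so a difference between genotypes and a difference between clones cannot be told apart, and p-values measure the spread between these clones and their cultures.

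TET2 oxidises 5-methylcytosine, a step on the way to its removal from DNA, and loss of TET2 is a common lesion in myeloid neoplasms. Azacytidine is a cytidine analogue that is built into nucleic acids and traps DNA methyltransferases, so that methylation falls as cells divide. Red cell differentiation is driven by GATA1 and KLF1, which turn on the globins, heme synthesis and the membrane skeleton.

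The files hold read counts per gene, shown here as CPM, counts per 1e6 counts of the library, scaled with TMM factors. The 4 libraries held 26159271 to 27477937 counts, and 3 counts corresponded to 0.109 to 0.115 CPM. The erythroid markers GATA1, KLF1 and EPOR, the progenitor markers CD34 and KIT, and the GM-CSF receptor chain CSF2RB were present in each of the 4 libraries (lowest value 11.0 CPM, for KIT in treated A12). CSF2RA, the other receptor chain, is listed without a count in any library and gave no check. TET2 stood at 32 and 41.3 CPM in treated KO clones F4 and A12 and at 29.1 and 29.9 CPM in untreated A7 and C4, so counts over all its exons do not check the knockout. The 2 libraries of a group are far from copies of each other, and in bulk RNA fewer cells of a type and less RNA per cell cannot be told apart.

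Most genes of treated KO cells were close to untreated WT. Of 16288 genes tested, 11454 (70.3%) had a 95% interval of the log2 difference within 2-fold of WT. Only 12 genes passed an adjusted p under 0.05 (0.0737% of genes tested), all of them higher in treated KO cells. No gene passed as lower in edgeR's quasi-likelihood test, against 1706 genes at an unadjusted p under 0.05 in either direction. DESeq2 called 205 higher and 114 lower, among them all 12. DESeq2 also called HBE1 higher than WT (1.84, adjusted p = 0.00171), past WT from -2.30 in untreated KO cells (adjusted p = 0.0271). By edgeR's test all 12 stayed on the side of WT where untreated KO cells were, and none lay past WT. The call count rests on the libraries: it was 568 without KO clone F4, 17 without A12, 6 without WT clone A7 (only EMC10 of the 12) and 7 without C4 (2 of the 12). Untreated KO cells had differed from the same WT libraries at 22 genes higher (0.135%) and 12 lower (0.0735% of 16333 tested).

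Ranges of the libraries give a finer description, with no test. Both treated KO libraries lay above both untreated WT libraries at 3517 genes (21.6%) and below at 3426 (21.0%), and the ranges overlapped at 9345. Of 3486 genes at which untreated KO cells lay below WT (21.4%), treated KO cells still lay below at 2180, overlapped WT at 1218 and lay above at 88. Of the 3674 that started above (22.6%), 2346 stayed above, 1250 overlapped and 78 lay below. These descriptions use the same WT libraries on both sides.

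The genes that Aza changed in KO cells were placed against untreated WT next. In the fit of 8 libraries with a term for clone, Aza raised 145 genes in KO cells (0.844% of 17175) and lowered 72 (0.419%). In WT cells it raised 444 (2.59%) and lowered 384 (2.24%), or 4.82% of genes in all, against 1.26% in KO cells. Without the clone term 0 genes passed in edgeR (402 at an unadjusted p under 0.05), and DESeq2 with the clone term called 55 and 13. The counts were 579 raised and 323 lowered without clone F4, and 98 raised and 35 lowered without A12. Of the 144 raised genes tested against WT, treated KO cells lay below WT at 28 (19.4%, beside 21.0% of all genes tested), above at 59 (41.0%, beside 21.6%) and overlapped at 57. Before treatment 77 had lain below WT, where 21.4% of all genes tested had lain. Afterwards 28 of these 77 were still below, 40 overlapped WT and 9 were above. The 37 tested genes raised at least 2-fold had 23 members below WT at the start, of which 3 were still below, 15 overlapped and 5 were above. Nearly all of that stronger set, 32 of 37, also rose with Aza in WT cells. Of the 37, 19 were below treated WT cells, beside 3264 of all 16288 genes tested. Of the 71 tested genes that Aza lowered, 35 had lain above WT, where 22.6% of all genes tested had lain. Of these 35, 20 overlapped WT afterwards, 13 stayed above and 2 were below. The treated and the untreated KO libraries enter both the choice of these genes and their position. A low start of raised genes and a high start of lowered genes is thus partly built in. The counts describe the genes and carry no test.

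**Figure D1:**
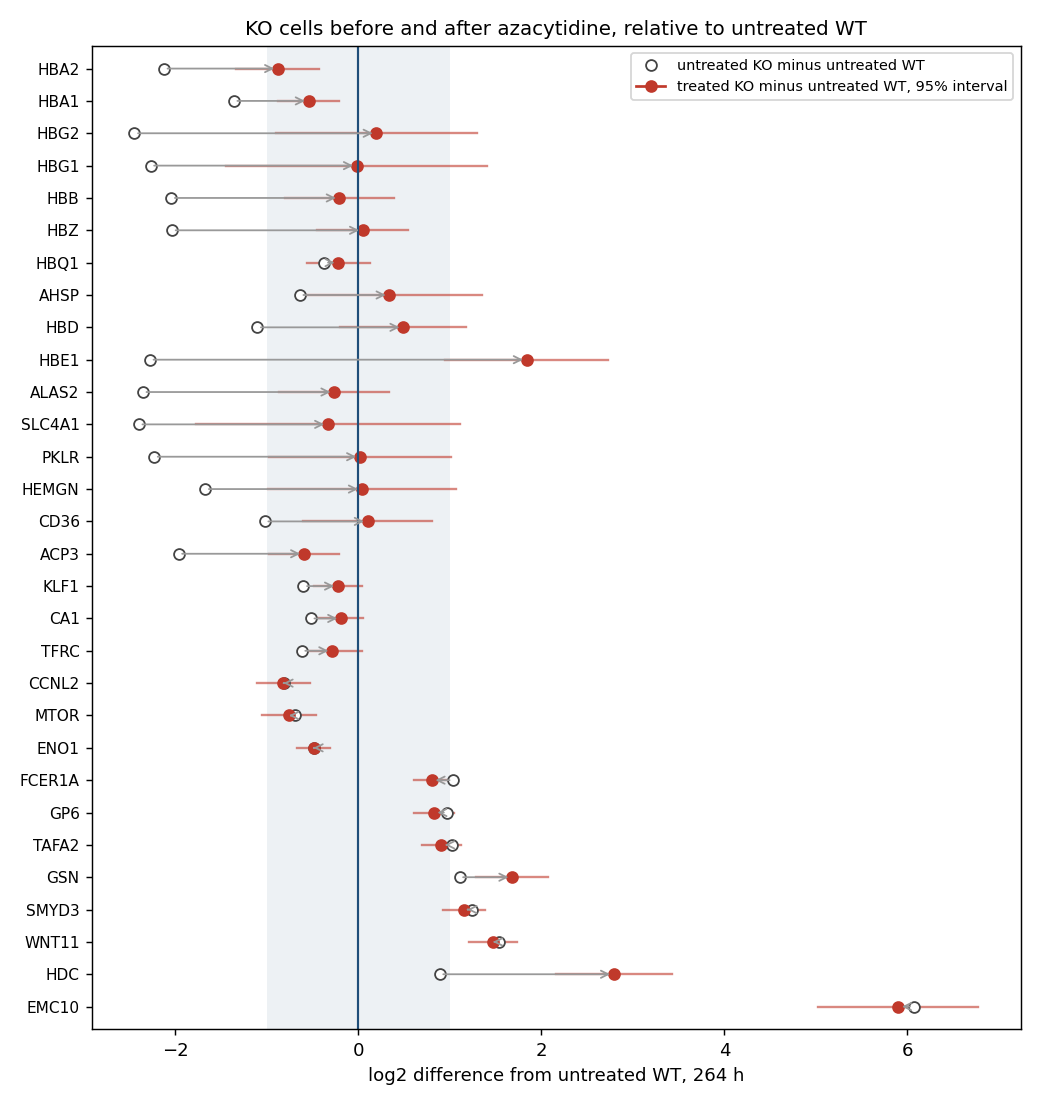
log2 difference from untreated WT (x axis) of 30 genes (y axis) at 264 h, for untreated KO (open circles) and treated KO cells (filled circles, with 95% intervals), with arrows from untreated to treated and a grey band for 2-fold. ALAS2 went from -2.35 to -0.26 and HBE1 from -2.28 to 1.84, while EMC10 went from 6.07 to 5.90 and WNT11 from 1.53 to 1.47.

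Hemoglobin genes had the largest shift of the median toward WT among the 24 gene lists. Hemoglobin is built of alpha-like chains (HBA1, HBA2, embryonic HBZ) and beta-like chains (adult HBB and HBD, fetal HBG1 and HBG2, embryonic HBE1). The median log2 difference from untreated WT over 10 tested genes was -2.04 in untreated and 0.02 in treated KO cells. Untreated KO cells lay below WT at 9 of 10 genes, beside 21.4% of all genes tested, and overlapped it at 1. Treated KO cells lay below at 3, overlapped at 5 and lay above at 2. Aza raised 7 of the 10 in KO cells, and 8 of 10 in WT cells, beside 0.844% and 2.59% of all genes tested. None passed against untreated WT in edgeR (3 at an unadjusted p under 0.05), while DESeq2 called HBE1 higher and HBA2 lower. The 10 genes summed to 139 and 85.4 CPM in untreated KO, 388 and 332 in treated KO, 359 and 522 in untreated WT and 1105 and 1378 in treated WT. Untreated KO libraries of batch 2 at the same time summed to 196 and 147 CPM. The treated KO sums thus fell in or just under the untreated WT range and under treated WT, and each of the 10 genes was below treated WT in both clones.

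The adult alpha chains rose toward WT and stayed below it in both treated KO libraries, but neither passed as short of WT. HBA2 (hg19 chr16:222846-223709) stood at 53 and 33.9 CPM in untreated F4 and A12, 115 and 90.3 CPM with Aza, and 163 and 215 CPM in untreated A7 and C4. Each treated KO library was below each WT library, with a log2 difference of -0.88 (SE 0.18, 95% interval -1.33 to -0.42, adjusted p = 0.207) against -2.12 before treatment. HBA1 (chr16:226679-227521) was at 17.7 and 19.0 CPM in untreated KO, 34.2 and 30.3 in treated KO, and 41.5 and 52.5 in untreated WT. It too stayed below WT in every library, at -0.54 (interval -0.88 to -0.21, adjusted p = 0.263) after -1.36 (adjusted p = 0.0457) before. The interval of HBA1 in treated KO cells lies within 2-fold of WT. HBA1 and HBA2 are near-identical copies between which reads may be split. Summed before the fit, they gave -0.81 (interval -1.22 to -0.39, adjusted p = 0.206).

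Embryonic HBZ, adult HBB and the fetal chains overlapped the WT range, and adult HBD lay above it. HBZ rose from 2.28 and 1.81 CPM to 8.49 and 8.88 CPM, between the untreated WT clones at 6.99 and 9.79 CPM. Its difference from WT went from -2.03 to 0.05 (interval -0.45 to 0.54), which lies within 2-fold. HBB rose from 13.9 and 5.27 CPM to 41.6 and 27.3, against 44.6 and 34.8 in WT, and overlapped it at -0.20 (SE 0.23). HBG2, by contrast, read 34.6 and 12.6 CPM in untreated KO and 152 and 144 with Aza, while the WT clones differed, at 78.5 and 180. Its KO change of 2.70 did not pass (adjusted p = 0.31). Its near-identical copy HBG1 was -0.02 from WT (SE 0.56). The summed HBG genes were 0.19 from WT, with a wide interval of -0.92 to 1.31. HBD rose from 4.07 and 2.6 CPM to 12.9 in F4 and 7.28 in A12, against 7.21 and 7.14 in WT, so that A12 was just above WT and F4 further above, with a difference of 0.49 (adjusted p = 0.603).

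HBE1 was the hemoglobin gene farthest above WT. This embryonic chain read 0.490 and 0.301 CPM in untreated F4 and A12, 5.44 and 8.61 with Aza, and 1.42 and 2.5 in untreated A7 and C4. All treated KO values were above all untreated WT values and below treated WT at 12.0 and 10.2 CPM. The difference from untreated WT was 1.84 (SE 0.37, interval 0.95 to 2.73, adjusted p = 0.173), against -2.28 before treatment, and the change with Aza in KO cells was 4.06 (adjusted p = 1.66e-06). Its call depends on the fit: it passed in DESeq2 (adjusted p = 0.00171) and with no filter on low counts (1.61e-07). In edgeR it also passed with untreated WT of 72 h and 264 h together (0.00702) and with all 25 libraries (0.0347). It did not pass with DESeq2's size factors in edgeR (0.172), 8 libraries with a shared spread (0.0618) or untreated WT from 72 h (0.105). Leaving out 1 clone gave differences of 1.47 to 2.30. The change with Aza was 1.55 larger in KO than in WT cells, which did not pass (adjusted p = 0.289). The gene models of HBE1 (chr11:5289582-5526847) and HBG2 (chr11:5274420-5667019) in the table overlap each other, so reads they share could not be assigned.

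For HBQ1 and AHSP no change with Aza passed in KO cells. HBQ1, a theta-like globin, was 11.1 and 10.2 CPM in treated KO, below 11.9 and 12.9 in WT (difference -0.22, SE 0.14). Aza did not raise HBQ1 in KO cells by the test (0.16). AHSP, the chaperone of free alpha chains, read 0.865 and 0.603 CPM in untreated KO and 1.43 and 1.49 with Aza, against 1.57 and 0.736 in WT. Its change with Aza in KO cells was 0.98 (adjusted p = 0.169). HBM was near the floor in these libraries and gets no fold.

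**Figure D2:**
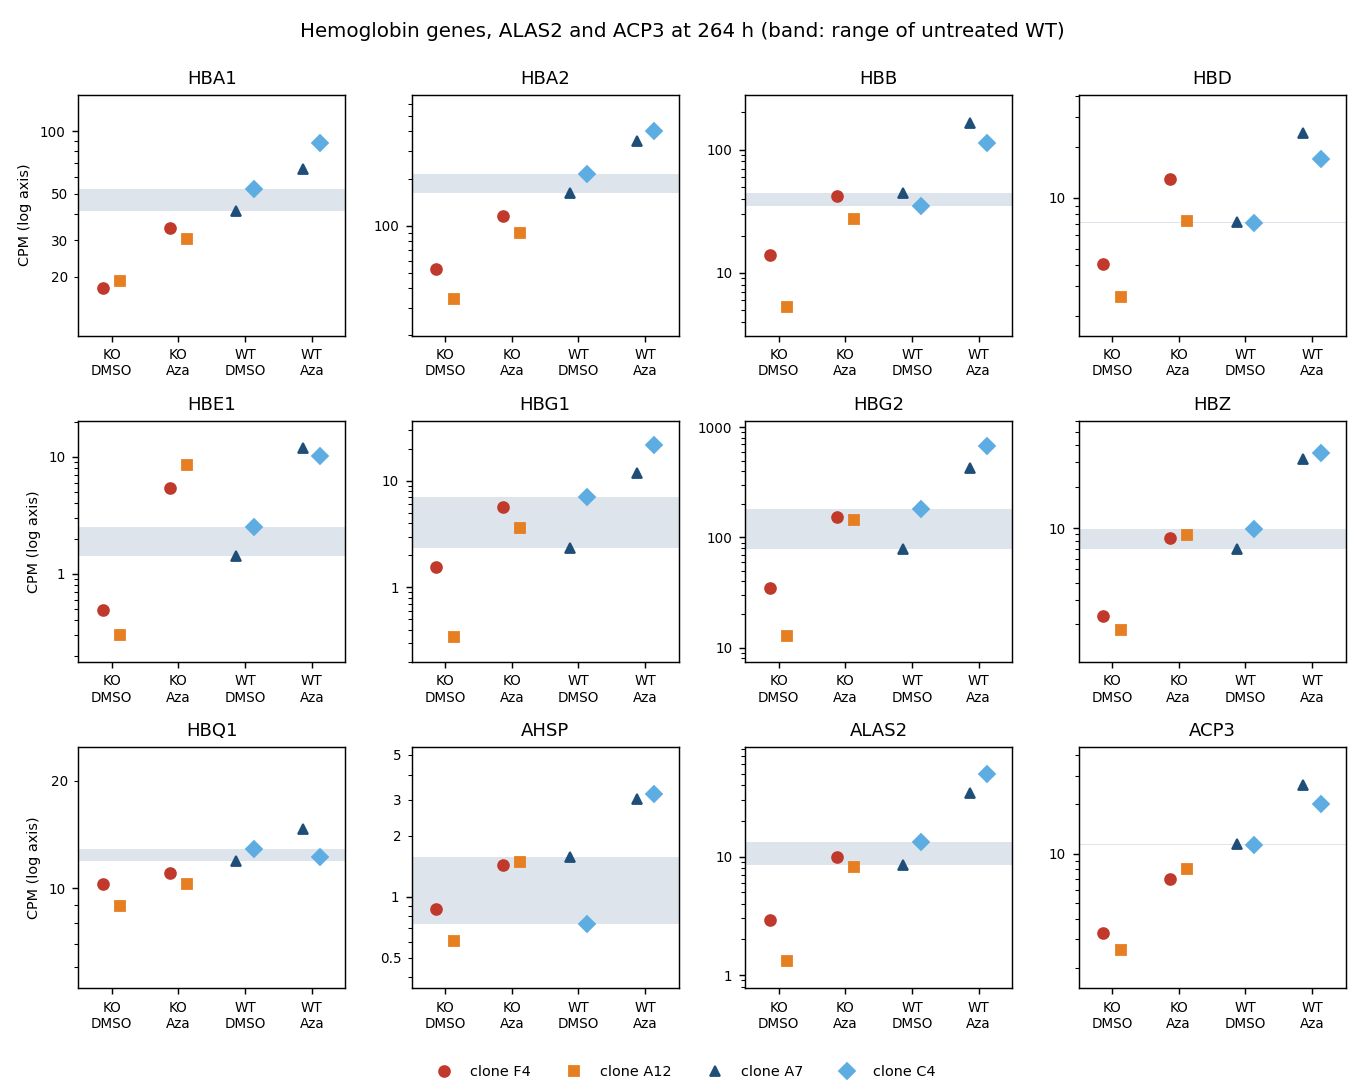
CPM (log axis) of 10 hemoglobin-list genes, ALAS2 and ACP3 in each library at 264 h, 1 panel per gene, with the 4 groups on the x axis, 1 symbol per clone and a band for the range of untreated WT. Treated KO points lie inside the band for HBZ, HBG1, HBG2 and AHSP, under it for HBA1, HBA2, HBQ1 and ACP3, and over it for HBD and HBE1.

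Some heme and membrane genes of the late red cell rose with the globins, while most genes of their lists did not pass for Aza in KO cells. ALAS2, the erythroid enzyme that starts heme synthesis (chrX:55035488-55057497), read 2.88 and 1.32 CPM in untreated KO, 9.99 and 8.11 with Aza, and 8.48 and 13.3 in untreated WT. Treated KO cells overlapped WT at -0.26 (interval -0.86 to 0.34), after -2.35 before. Over all 27 genes of heme synthesis and iron, Aza raised 4 in KO cells and 15 in WT cells. Of all genes tested it raised 0.844% in KO and 2.59% in WT cells. Treated KO cells lay above WT at 5 (18.5%), below at 3 (11.1%) and overlapped at 19, with a median of -0.03. Of all genes tested 21.6% lay above and 21.0% below. At its extremes were TFRC, the transferrin receptor, at -0.29 (adjusted p = 0.535), and ALAS1, the enzyme's housekeeping form, at 0.73 (adjusted p = 0.479), with ABCB10 also at -0.29 and the ferritin light chain FTL at 0.38. SLC25A37, the mitochondrial iron importer, was 85.0 and 73.9 CPM against 90.1 and 78.7 (-0.09, SE 0.11).

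Among 38 red cell membrane and blood group genes, 9 lay below WT, 6 above and 23 overlapped (median -0.12), and none passed (10 at an unadjusted p under 0.05, and 1 higher in DESeq2). The shares were 23.7% below and 15.8% above, beside 21.0% and 21.6% of all genes tested. SPTB, beta-spectrin of the membrane skeleton, rose from 9.26 and 4.26 CPM to 13.9 and 9.29 but stayed below WT at 16.5 and 19.1 (-0.62, adjusted p = 0.407). The anion exchanger SLC4A1 read 1.58 and 0.419 CPM in treated KO against 1.31 and 1.21 in WT, and overlapped at -0.33 (SE 0.59). The list's other extremes were ART4 at -1.17, the urea transporter SLC14A1 at 0.81 and the actin-bundling DMTN at 0.85, of which none passed. EPB42, a protein of the membrane skeleton, was at -0.04 (SE 0.20) and the water channel AQP1 at -0.57 (SE 0.30).

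Of 27 erythroid enzyme and maturation genes, 8 lay below WT, 5 above and 14 overlapped (median 0.02). The shares were 29.6% below and 18.5% above, beside 21.0% and 21.6% of all genes tested. PKLR, red cell pyruvate kinase, rose from 0.548 and 0.264 CPM to 1.80 and 2.17 and overlapped WT (1.24 and 2.69, difference 0.02). HEMGN, a nuclear protein of erythroid cells, likewise overlapped at 0.04 (SE 0.42). Carbonic anhydrase CA1 was 244 and 292 CPM against 301 and 311 in WT (-0.19, SE 0.10, adjusted p = 0.577). SELENBP1 had 39.2 CPM in WT clone A7 but 3.24 in C4, against 3.38 and 10.1 in treated KO, so its value of -1.66 rests on A7. TSPAN33 at -0.72 and RFESD at 0.53 were other extremes.

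CD36 and ACP3 were named after their values were seen or from earlier results. CD36, a fatty acid receptor carried by erythroid progenitors, rose from 10.7 and 8.78 CPM to 20.6 and 21.7, inside the WT range of 14.2 to 25.3. ACP3, an acid phosphatase (chr3:132036211-132087142), was among the genes that passed as lower in untreated KO cells (-1.96, adjusted p = 0.0457). Aza raised it from 3.26 and 2.56 CPM to 6.98 and 8.08, still below 11.5 and 11.2 in WT, and the remaining difference of -0.59 did not pass (interval -0.98 to -0.21, adjusted p = 0.284).

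Regulators of erythroid genes were near WT, with 33 of 36 within 2-fold. KLF1 rose with Aza in KO cells by 0.38 (adjusted p = 0.000219), from 88.5 and 69.2 CPM to 105 and 98.8, and remained just under WT at 108 and 130 (-0.22, SE 0.11). GATA1 was 91.1 and 108 CPM in treated KO and 84.1 and 87.7 in WT (0.22, adjusted p = 0.547). EPOR, the erythropoietin receptor, read 16.0 and 18.2 CPM, between the WT values of 13.9 and 21.6. GATA2, the factor that GATA1 replaces, was higher in both treated KO libraries (722 and 797 against 526 and 599 CPM), but its 0.43 did not pass (adjusted p = 0.203). GFI1B, a repressor of the erythroid and megakaryocyte lines, was at 0.35 (SE 0.16). BCL11A, a repressor of fetal globin, was lower in both (5.14 and 3.43 against 8.37 and 10.0 CPM), with -1.10 and an adjusted p of 0.205. Of 36 regulators tested, 12 (33.3%) lay above WT, 6 (16.7%) below and 18 overlapped, beside 21.6% above and 21.0% below of all genes tested. IGF2BP1, at 12.0 CPM in A12 and 0.257 in F4, and KIT, at -0.49, were the other extremes.

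The promoters of 4 genes are printed because these genes show 3 outcomes: ALAS2 reached the WT range, HDC and CLC rose with Aza away from untreated WT, and EMC10 lay above WT with and without Aza. Each line holds the 250 bases upstream of the gene's start, 5′ to 3′ on the gene's strand, from RefSeq on GRCh38.p14, with CG dinucleotides, the sites of methylation, in capitals.
ALAS2: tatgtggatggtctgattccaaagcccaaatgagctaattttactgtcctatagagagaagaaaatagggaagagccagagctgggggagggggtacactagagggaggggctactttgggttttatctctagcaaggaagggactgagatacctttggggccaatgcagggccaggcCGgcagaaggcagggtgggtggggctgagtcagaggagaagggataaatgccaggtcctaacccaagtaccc
HDC: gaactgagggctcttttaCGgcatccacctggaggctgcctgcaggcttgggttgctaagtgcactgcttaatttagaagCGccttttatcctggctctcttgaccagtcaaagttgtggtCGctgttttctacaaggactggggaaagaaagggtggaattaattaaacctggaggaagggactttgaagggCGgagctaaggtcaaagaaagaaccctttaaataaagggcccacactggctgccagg
CLC: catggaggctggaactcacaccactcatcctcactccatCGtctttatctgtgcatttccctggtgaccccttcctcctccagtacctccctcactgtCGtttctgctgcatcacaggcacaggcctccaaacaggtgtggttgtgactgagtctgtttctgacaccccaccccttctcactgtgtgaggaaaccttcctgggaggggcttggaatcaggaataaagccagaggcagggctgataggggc
EMC10: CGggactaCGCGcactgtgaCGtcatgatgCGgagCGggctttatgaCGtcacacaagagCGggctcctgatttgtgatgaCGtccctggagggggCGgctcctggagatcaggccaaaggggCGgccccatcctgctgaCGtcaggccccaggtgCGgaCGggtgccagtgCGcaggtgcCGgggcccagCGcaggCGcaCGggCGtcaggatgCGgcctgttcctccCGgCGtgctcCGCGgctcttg

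They lie at chrX:55030978-55031227 on the minus strand (ALAS2), chr15:50265727-50265976 on the minus strand (HDC), chr19:39738030-39738279 on the minus strand (CLC) and chr19:50476257-50476506 on the plus strand (EMC10). EMC10 has 25 CG dinucleotides, HDC 4, CLC 2 and ALAS2 1, against a median of 11 over 35116 promoters, and 80.4%, 34.3%, 22.9% and 14.7% of promoters hold no more than each of them. The GATA motif AGATAA, searched on both strands, is found once in ALAS2 and once in CLC, and in 9.17% of all promoters. A KLF motif was matched 4 times in ALAS2, 2 times in CLC and 1 time in EMC10, and is present in 53.4% of all promoters. These letters are a description of the windows, and methylation was not analysed here.

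Some granule genes of eosinophils and basophils rose with Aza in KO cells and ended above untreated WT. Of 25 tested genes of mast cells, basophils and eosinophils, untreated KO cells lay above WT at 10, and treated KO cells at 15, with 1 below and 9 overlapping. Of all genes tested, 22.6% lay above in untreated KO cells, and 21.6% above and 21.0% below in treated KO cells. Low genes such as CLC, EPX, PRG2 and PRG3 passed the filter through the treated KO libraries alone. Their place above WT is thus partly built in, and it adds to the counts of treated KO cells over the 25 genes. Over the 20 genes tested in both comparisons, the median difference was 0.72 in treated and 0.39 in untreated KO cells. Over all 25, with the genes that passed the filter in this way, HDC passed, 14 had an unadjusted p under 0.05, and DESeq2 called 9 higher and 0 lower. Aza raised 5 of these genes and lowered 1 in KO cells, and raised 8 and lowered 2 in WT cells, beside 0.844% of all genes raised in KO and 2.59% in WT cells. The whole list, 32 genes in the table, summed to 1039 to 1148 CPM in treated KO, 1010 to 1114 in untreated KO and 743 to 808 in untreated WT.

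HDC, histidine decarboxylase, makes histamine (hg19 chr15:50534144-50558223). It read 3.92 and 3.77 CPM in untreated F4 and A12, 11.4 and 17.3 with Aza, and 2.18 and 1.95 in untreated A7 and C4. Treated KO cells were above every other group, including treated WT at 6.31 and 2.68. The difference from untreated WT was 2.79 (interval 2.16 to 3.43, adjusted p = 0.049), against 0.89 before treatment (adjusted p = 0.222). It no longer passed without WT clone A7 (adjusted p = 0.153) or C4 (0.163). The change with Aza was 0.77 larger in KO than in WT cells, which did not pass (adjusted p = 0.501).

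CLC, which encodes the Charcot-Leyden crystal protein of eosinophils and basophils (chr19:40221890-40228668), had the largest difference from WT of all genes tested. The treated KO libraries held 8.38 and 35.0 CPM, or 1148 counts in both, against 2 counts in both untreated WT libraries. The ratio was 593 (95% counting interval 164 to 4898), and the same counts were 188 times the 7 counts of untreated KO cells (interval 91.0 to 469). CLC did not pass against WT (9.04, SE 1.36, adjusted p = 0.168), with the treated clones A12 and F4 far apart, but it passed for Aza in KO cells (adjusted p = 1.15e-16). Treated WT cells also had CLC, at 20.6 CPM in A7 and 2.71 in C4.

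Other granule genes showed the same spread. EPX, eosinophil peroxidase, was 3.01 and 8.76 CPM in treated KO and 0.218 and 0.0736 in untreated WT (5.29, adjusted p = 0.138). PRG3, a relative of eosinophil major basic protein, was 3.45 and 20.0 CPM against 0.291 and 0.0368 (6.12, adjusted p = 0.285). PRG2, the major basic protein itself, named after its values were seen, was 0.955 and 3.24 CPM against 0.109 and 0.368. In each of CLC, EPX, PRG3 and PRG2, A12 was higher than F4. Their untreated WT values ran from 0.0364 to 0.368 CPM, beside a floor of 3 counts at 0.109 to 0.115 CPM. The 4 genes summed to 15.8 and 67.0 CPM in treated KO, 0.655 and 0.515 in untreated WT and 59.4 and 9.90 in treated WT.

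A regulator and receptors of these cells were also above WT in treated KO cells. CEBPE, a factor of granule formation, was 1.14 and 3.35 CPM against 0.473 and 0.147 (2.83, adjusted p = 0.301), and Aza raised it in KO cells by 1.59 (adjusted p = 0.0038). IL1RL1, the interleukin-33 receptor, was 1.58 and 4.34 CPM against 0.437 and 0.331, with untreated KO already at 1.04 and 2.26. Its change with Aza in KO cells, 0.82, did not pass (adjusted p = 0.133). In WT cells Aza raised CEBPE by 2.13 (adjusted p = 0.000843) and IL1RL1 by 1.54 (adjusted p = 0.022). Treated KO cells overlapped treated WT cells at both genes. FCER1A, the chain of the high-affinity IgE receptor that binds IgE, was 123 and 128 CPM in untreated KO, 109 and 104 in treated KO and 61.7 and 60.2 in WT. Aza lowered FCER1A in KO cells (-0.23, adjusted p = 0.0134) and in WT cells (-0.33, adjusted p = 0.000423). The difference of treated KO from untreated WT was 0.80 (adjusted p = 0.0505). MITF, a mast cell factor, was below WT in both treated KO libraries, at -0.77 (adjusted p = 0.403). Other ends of this list and of the granulocyte and monocyte list among genes of at least 1 CPM, none of which passed, were KIT at -0.49, LYZ at -0.15, CYBB at -0.02 and the integrin ITGAX at 1.24. Of those 18 granulocyte and monocyte genes, 7 (38.9%) lay above WT and 1 (5.6%) below, beside 21.6% and 21.0% of all genes tested.

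**Figure D3:**
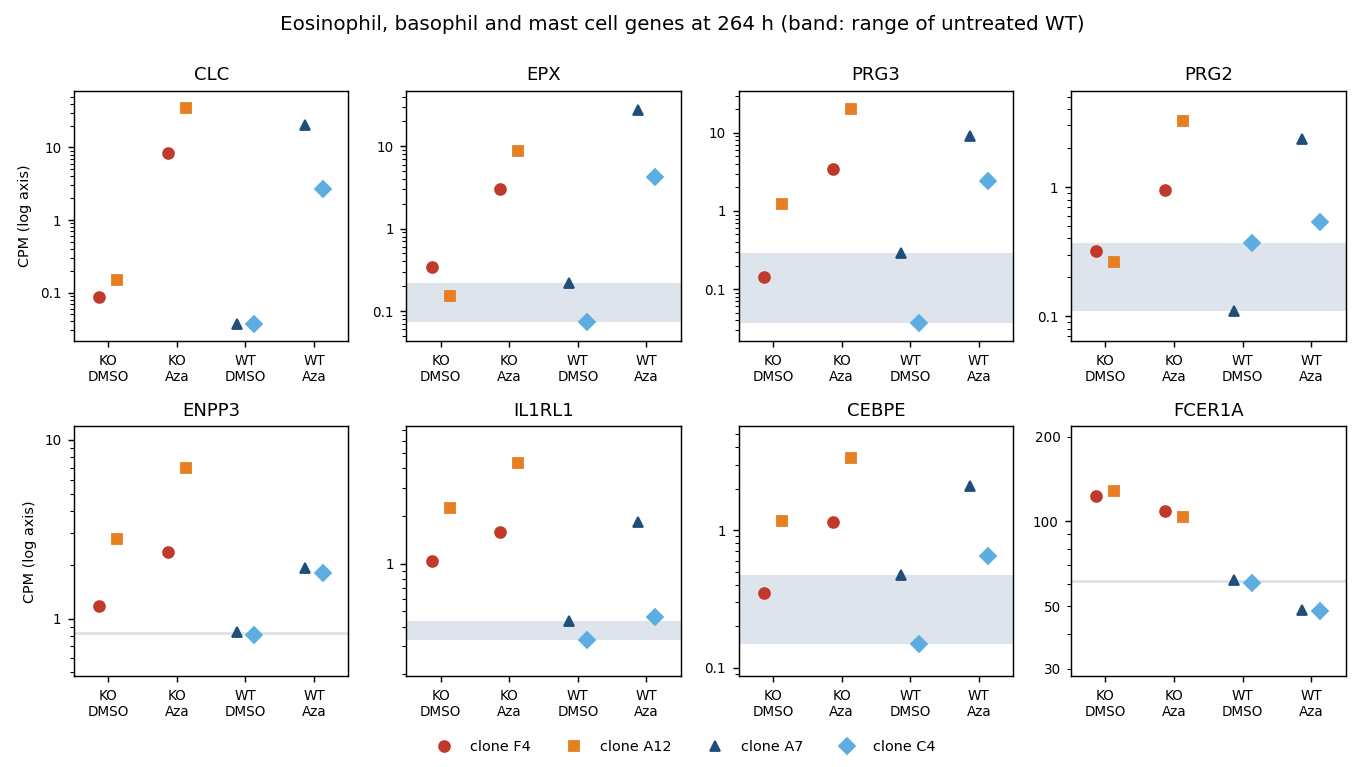
CPM (log axis) of 8 eosinophil, basophil and mast cell genes in each library at 264 h, 1 panel per gene, with the 4 groups on the x axis, 1 symbol per clone and a band for the range of untreated WT. Treated KO points lie above the band in all 8 panels, A12 is the higher clone in 7 of them, and FCER1A alone was lowered by Aza.

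Of the 12 genes that passed, 10 had no change with Aza that passed in KO cells, and their KO level was apart from WT with and without the drug. EMC10, part of a complex that inserts proteins into the endoplasmic reticulum membrane (chr19:50979657-50986608), read 27.8 and 22.0 CPM in untreated KO, 22.9 and 21.4 with Aza and 0.182 and 0.552 in untreated WT. Its difference from WT was 5.90 (interval 5.03 to 6.77, adjusted p = 0.0309) after 6.07 before, and WT cells stayed low with Aza (0.416 and 0.612). IGFBP7, a secreted binder of insulin-like growth factors (chr4:57896939-57976551), was 7.68 and 6.93 CPM against 0.109 and 0.331 (5.03, adjusted p = 0.0328). PLPP4, a lipid phosphatase, was 5.18 and 4.08 CPM against 0.146 and 0.147 (4.94, adjusted p = 0.0309), or 248 counts against 8, a ratio of 32 (counting interval 16.0 to 74.9). Aza raised both in WT cells, by 1.88 and 1.96, to levels well under those of KO cells.

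Another 6 of the genes that passed had differences from 0.91 to 3.25. WNT11, a Wnt ligand, was 154 and 137 CPM in treated KO and 56.7 and 48.5 in WT (1.47, SE 0.11, adjusted p = 0.0309). The sialyltransferase ST8SIA6 was 147 and 124 CPM against 52.4 and 56.3 (1.32, adjusted p = 0.0328). ST8SIA6-AS1 was 9.40 and 8.84 CPM against 0.874 and 1.03 (3.25, adjusted p = 0.0309), but it lies antisense within ST8SIA6 and the counting sets no strand, so reads of the pair cannot be told apart. SMYD3, a lysine methyltransferase, was 133 and 143 CPM against 58.3 and 65.8 (1.15, adjusted p = 0.0328). ARAP3, a regulator of small GTPases, was 29.7 and 31.7 CPM against 11.1 and 8.95 (1.61, adjusted p = 0.049). TAFA2, a secreted protein of the nervous system, was 106 and 115 CPM against 56.7 and 60.7 (0.91, adjusted p = 0.049). In KO cells the change of these 6 with Aza ran from -0.10 to 0.10, and none of them passed for it.

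KCNE3 and GSN both rose with Aza in WT cells, and GSN in KO cells too. KCNE3, a potassium channel subunit, was 5.18 and 6.44 CPM against 0.801 and 0.847 (2.81, adjusted p = 0.049), with a rise in WT cells given Aza (1.26, adjusted p = 0.00441) and a change of 0.24 in KO cells (adjusted p = 0.593). GSN, the actin-severing protein gelsolin, rose with Aza in KO cells by 0.58 (adjusted p = 0.00133), from 11.0 and 12.1 CPM to 16.5 and 17.7, away from untreated WT at 5.79 and 4.86 (1.68, adjusted p = 0.049). In WT cells GSN rose by 0.98 (adjusted p = 5.14e-06). Like HDC, GSN had not passed before treatment (1.11, adjusted p = 0.0799), and neither had TAFA2 (1.02, adjusted p = 0.0771).

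**Figure D4:**
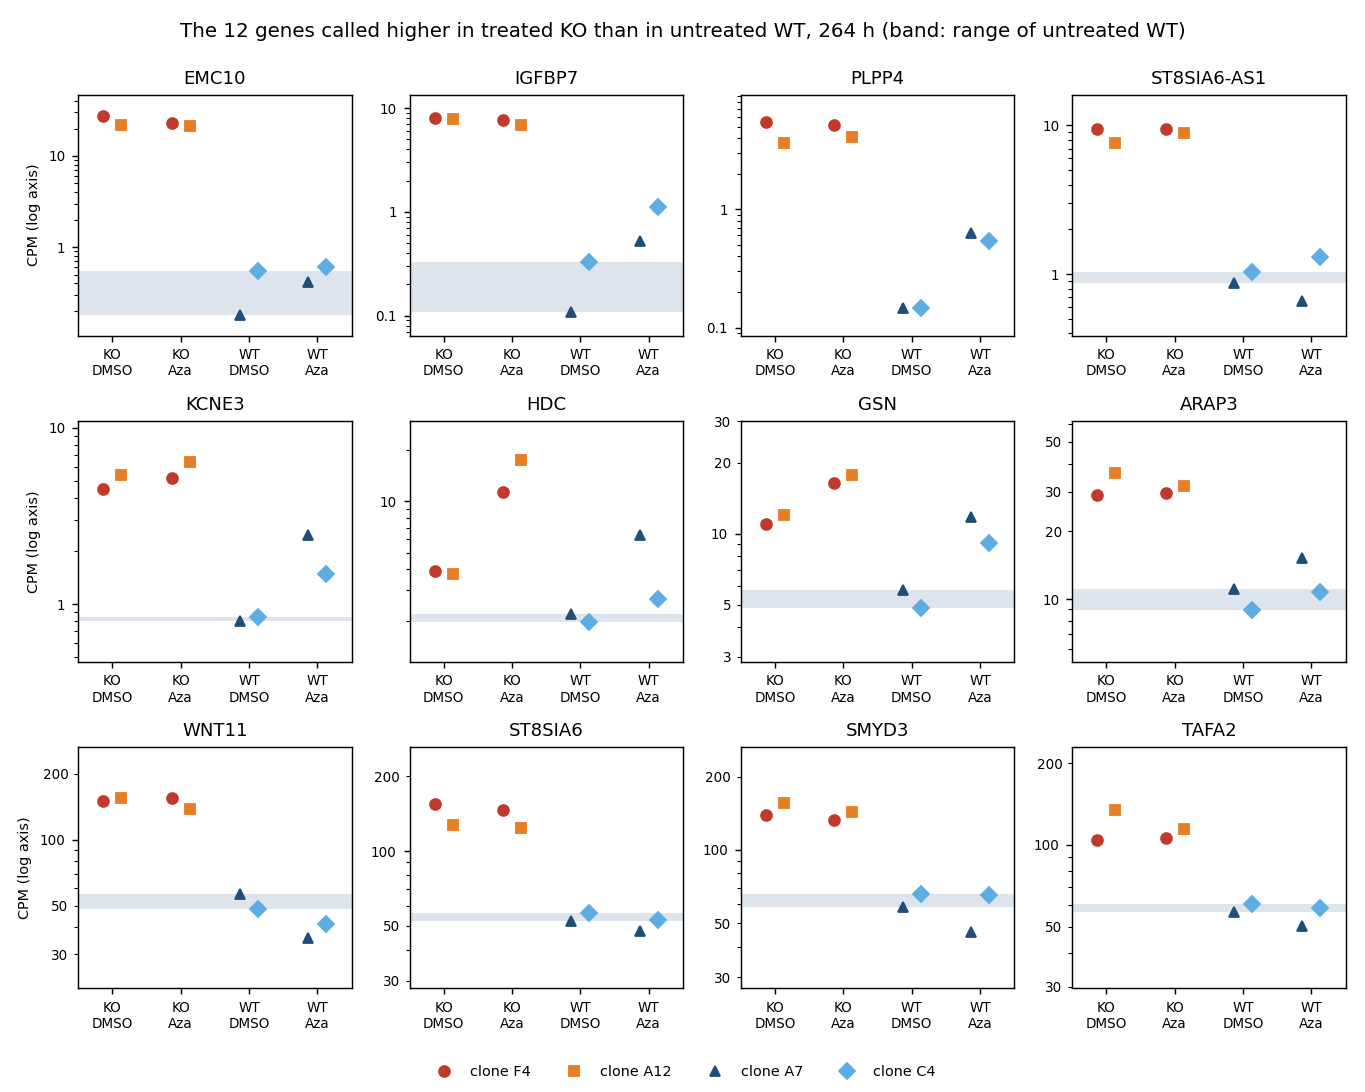
CPM (log axis) of the 12 genes that passed as higher in treated KO than in untreated WT cells, in each library at 264 h, 1 panel per gene, with the 4 groups on the x axis, 1 symbol per clone and a band for the range of untreated WT. KO points lie above the band with and without Aza in all 12 panels, and HDC and GSN alone rose with Aza in KO cells by the test.

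The genes that had passed between untreated KO and WT cells were chosen with the same WT libraries, so their values are a description. The 22 that had passed as higher had a median difference of 1.89 before and 1.96 after Aza, and 9 of them passed after Aza. Both treated KO libraries lay above both WT libraries at every one of them, and Aza lowered 1, FCER1A. GP6, the platelet collagen receptor, was 48.6 and 50.7 CPM against 28.1 and 27.9 (0.82, adjusted p = 0.0784), and LAPTM5, a lysosomal protein of blood cells named after its values were seen, was at 0.67 (adjusted p = 0.0676). The 12 that had passed as lower had a median of -0.70 before and -0.65 after. All lay below WT in both treated KO libraries, none passed in edgeR (12 at an unadjusted p under 0.05, and 8 lower in DESeq2), and Aza raised 2, HBA1 (-1.36 before, -0.54 after) and ACP3 (-1.96 before, -0.59 after).

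A stretch of chromosome 1 held 9 of those 12. Of 158 tested coding genes in its first 20 Mb, a region chosen from earlier results, both treated KO libraries were below WT at 135 and above at 4. The shares were 85.4% below and 2.5% above, beside 21.0% and 21.6% of all genes tested. The median difference was -0.54 with Aza and -0.55 without, and the median change with Aza in KO cells was 0.01. None passed as lower in treated KO cells in edgeR (120 at an unadjusted p under 0.05), and DESeq2 called 65 lower. MTOR, the kinase of 2 growth-control complexes, was 108 and 84.3 CPM against 164 and 160 (-0.75, adjusted p = 0.136). CCNL2, a cyclin tied to splicing, and the glycolytic enzyme ENO1, both named after their values were seen, were at -0.82 and -0.49 (adjusted p = 0.117 for each).

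Of 23 tested megakaryocyte and platelet genes, 12 (52.2%) lay above WT in treated KO cells, 3 (13.0%) below and 8 overlapped. Of all genes tested 21.6% lay above and 21.0% below. None passed in edgeR (8 at an unadjusted p under 0.05), and DESeq2 called 4 higher. The median over 22 genes tested in both comparisons was 0.33 after Aza and 0.40 before, and the median change with Aza in KO cells was -0.08. The list summed to 1163 to 1209 CPM in treated KO and 1102 to 1120 in untreated WT. ANGPT1, a growth factor of vessels, was 5.58 and 6.82 CPM against 1.38 and 2.21 (1.79, adjusted p = 0.136). RAB27B, a GTPase of granule release, was 1.10 and 2.74 against 0.146 and 0.110 (3.86, adjusted p = 0.136), while CD9 and PDGFA were at -1.07 and -1.21 with no pass. TYROBP, a signalling adaptor named after its values were seen, was 18.3 and 21.1 CPM against 7.83 and 6.96, and missed the threshold at 1.41 (adjusted p = 0.0733).

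In the stem cell, lymphoid and non-blood lists no gene passed in edgeR, with 0, 4 and 7 at an unadjusted p under 0.05 and 0, 2 and 2 called higher by DESeq2. CD34 was 395 and 287 CPM against 314 and 281, within the clone spread (0.20, SE 0.16). Of 16 stem and progenitor genes 12 overlapped WT, beside 9345 of all 16288 genes tested. HOXA9 and NPR3, at -0.73 and 0.68, were the ends of that list. In the lymphoid list, CD3D was 16.8 and 48.7 CPM against 3.39 and 0.810, and CD22 was 18.8 and 28.3 against 6.55 and 6.30, both as high in untreated KO cells. CD79B and GATA3 were lower, at -0.94 and -0.54. Non-blood genes lay above WT at 8 of 16 and below at 3, with ITGA8 at 1.39, COL1A1 at 0.67, COL6A2 at -0.74 and CDH5 at -1.42.

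The machinery of DNA methylation sat at the WT level. Of 24 genes, 23 were within 2-fold of WT, beside 70.3% of all genes tested. DNMT1, the maintenance methyltransferase and a target of Aza, was 516 and 492 CPM against 540 and 551 (-0.11, SE 0.07). TET1 and the glycosylase TDG, at -0.25 and -0.22, were the lowest members of at least 1 CPM, and ZBTB4 and TET2, at 0.28 and 0.31, the highest. In the 24 genes of azacytidine uptake and pyrimidine metabolism, 22 were within 2-fold, with UPP1 at -0.45, RRM2B at -0.21, DCTD at 0.42 and CTPS2 at 0.47.

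Cell cycle genes were likewise near WT, and more of them lay below it than above. All 34 genes of G2/M and mitosis were within 2-fold, beside 70.3% of all genes tested. Yet 14 (41.2%) lay below WT and 3 (8.8%) above (median -0.07), beside 21.0% and 21.6% of all genes tested. In untreated KO cells 8 had lain below and 5 above (median -0.06). CDC25C and ECT2, at -0.49 and -0.29, and MAD2L1 and CENPE, at 0.18 and 0.13, marked its ends. Of 34 genes of G1/S and DNA replication, 11 (32.4%) lay below and 2 (5.9%) above (median -0.08), after 10 and 5 in untreated KO cells. CDC6 at -0.56 and MCM10 at -0.28 were its low end, and CHAF1A at 0.15 and RRM2 at 0.21 its high end. Among 29 mTOR genes 28 were within 2-fold, RPTOR at 0.05 (SE 0.08), and DEPTOR, TSC1 and LAMTOR5 at -0.26, 0.24 and 0.27 were at the ends beside MTOR. In 25 genes of cytokine signalling and STAT5 targets, 11 (44.0%) lay above and 3 (12.0%) below, after 10 and 2 in untreated KO cells. Aza lowered CCND1, cyclin D1, in KO cells (-0.56, adjusted p = 0.000631), to 20.8 and 23.7 CPM against 37.6 and 32.6 in WT, and it raised EGR1 by 1.03 (adjusted p = 0.0129). DUSP6, a brake on MAP kinase, was at 1.05 and CDKN1B at -0.41. SLC7A8, an amino acid transporter, was 34.4 and 65.3 CPM against 32.4 and 27.7 (0.73, adjusted p = 0.516).

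Lists often examined after hypomethylating drugs followed no single direction against untreated WT. In KO cells Aza raised 0 genes of the interferon, germline, imprinted and antigen presentation lists, and lowered 1, an antigen presentation gene. Of all genes tested, 0.844% were raised and 0.419% lowered, so counts this low do not set lists of this size apart. In untreated KO cells the medians of these lists, in that order, were 0.14, 0.47, 0.06 and -0.52. In treated KO cells they were 0.20, 0.20, 0.06 and -0.58. Of 37 interferon response genes, 16 (43.2%) lay above WT and 7 (18.9%) below (median 0.20), beside 21.6% and 21.0% of all genes tested. In untreated KO cells 12 had lain above and 2 below. IFI44L (2.38, adjusted p = 0.139), IFI35 (0.65), IFI16 (-0.51) and ISG15 (-0.59) were at the ends. Germline genes lay above WT at 3 of 16 (18.8%) and below at 2 (12.5%). MAGEA3 was 80.3 and 122 CPM in treated KO and as high before Aza (87.5 and 114), with WT clones at 1.35 and 23.6. MAGEB2 was at 2.6, SYCP2 at -1.32 and TEX15 at -0.38. Of 21 imprinted genes, 5 (23.8%) lay above and 6 (28.6%) below, with FAM50B at 1.11, NAP1L5 at 0.55, DIRAS3 at -0.68 and CDKN1C at -1.38. Antigen presentation genes had a median of -0.58 but overlapped WT at 16 of 24, beside 9345 of all 16288 genes tested. At the ends were HLA-DRA at 210 and 97.2 CPM against 549 and 178, HLA-DRB5 at -1.36, PSMB9 at 0.85 and HLA-B at 1.18.

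Among the stress and lipid lists, the p53 targets lay more often above WT than below. Of 30 p53 targets, 12 lay above WT and 3 below (median 0.10). CDKN1A, the p21 inhibitor of the cell cycle, was 3.93 and 7.16 CPM against 2.40 and 1.36 (1.56, adjusted p = 0.287), and BTG2 rose with Aza in KO cells by 0.87 (adjusted p = 0.00915) to 4.78 and 4.91 CPM against 1.49 and 2.65. RRM2B at -0.21 and DDB2 at -0.33 were its low end. Of 33 genes of the integrated stress, unfolded protein and heat shock responses, 21 overlapped WT, 7 (21.2%) lay above and 5 (15.2%) below. At the ends of that list were ASNS at -0.48, HSP90AA1 at -0.39, SESN2 at 0.52 and PPP1R15A at 0.55. Cholesterol and fatty acid genes overlapped at 20 of 32, with 6 (18.8%) above and 6 (18.8%) below. HMGCS1 at -0.42, TM7SF2 at -0.39, ELOVL6 at 0.21 and INSIG1 at 0.35 were at the ends. Over all 24 lists, 597 genes were tested, HDC alone passed, 99 had an unadjusted p under 0.05, and DESeq2 called 25 higher and 4 lower.

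**Figure D5:**
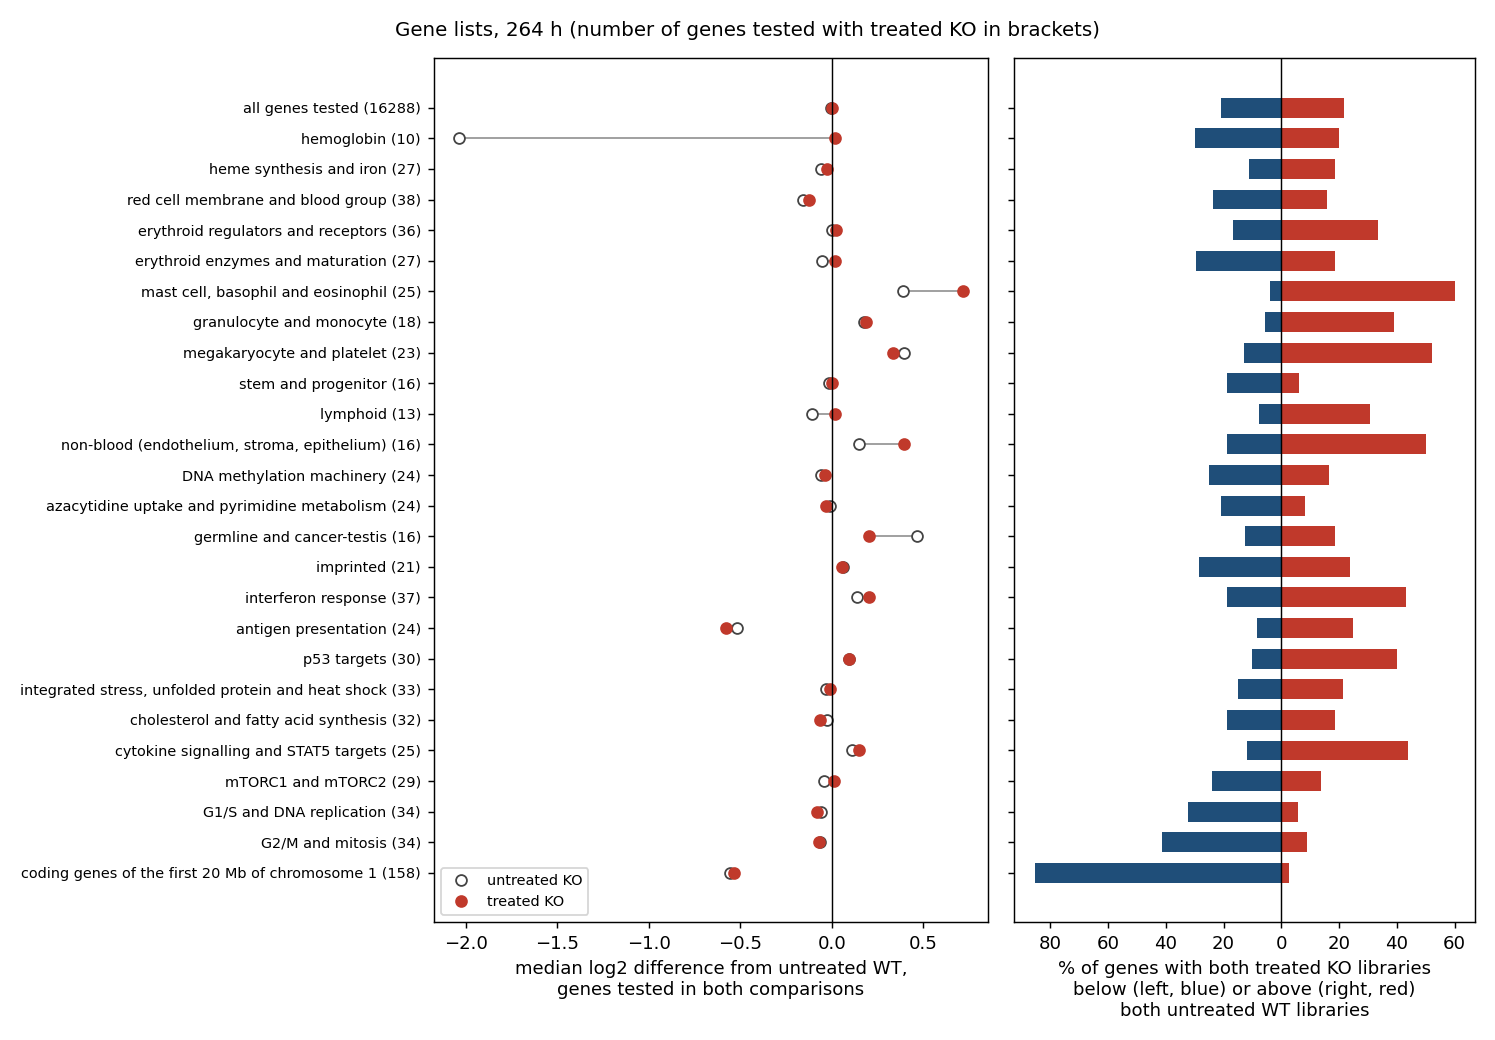
Left, median log2 difference from untreated WT (x axis) for each gene list (y axis, genes tested in brackets), in untreated KO (open) and treated KO cells (filled), over genes tested in both comparisons. Right, percent of genes with both treated KO libraries below (left) or above (right) both untreated WT libraries. Hemoglobin moves from -2.04 to 0.02 and the mast cell, basophil and eosinophil list from 0.39 to 0.72, while the chromosome 1 stretch stays near -0.54.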

How the data were processed

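The members, gene lists and tests were chosen with earlier results of these data known. The authors deposited whole-number counts per gene for 57773 genes, counted over GENCODE 19 exons with featureCounts 1.6.2 in paired mode and with no strand option, per the file headers. Reads of overlapping or antisense genes therefore cannot be told apart, and reads of near-identical copies may be split. The build was hg19 (GRCh37), and STAR 2.6.1d, cutadapt, FastQC and DESeq2 are named beside featureCounts, per the submitters' processing notes. Libraries came from a stranded mRNA kit on a NovaSeq, per the labels' protocols. A gene name table named 51996 IDs and GENCODE 29 named 342 more, which left 5435 without a symbol.

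From the counts, groups were taken from the labels and fitted with edgeR 4.0.16 (R 4.3.3) after TMM scaling and filterByExpr, with the robust quasi-likelihood test. Adjusted p is the Benjamini-Hochberg value over all genes tested, with a threshold of 0.05, and SE is the log2 difference divided by the root of F. Treated KO and untreated KO were each compared with untreated WT in fits of 4 libraries. The fits share the WT libraries. The effect of Aza in KO and WT used 8 libraries with a clone term, since the labels give each clone in both arms. Deviations from the group means over 3000 variable genes correlated between arms at 0.788 in KO and 0.765 in WT. CPM values use TMM over the 25 libraries that passed quality control. Counting intervals cover counting error only. The code was tested on simulated data.

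A gene was placed on the untreated KO side of WT, or past WT, where the treated difference passed and had the same or the opposite sign as the untreated one, and within 2-fold where its 95% interval lay inside that band. Named genes were a set of 37, the genes that passed (up to 12 each way), list members that passed and the 2 extreme members each way of every list at 1 CPM or more. Some genes that this rule names are not reported here. Others are said to be named after their values were seen. Alternatives were DESeq2 1.42.0 (its size factors and its test), no filter on low counts, other sets of libraries, the clone term, and leaving out each clone. Promoters came from RefSeq, which held 13 of 28 genes looked up. The other libraries were left out because the comparison is at 264 h in batch 1.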

Additional observations from a re-analysis of the deposited data

Results flagged for a closer look

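The response to Aza differed between KO and WT cells for DIO2, a deiodinase that activates thyroid hormone (hg19 chr14:80663873-80854100). The change with Aza was 0.571 higher on the log2 scale in KO than in WT cells (adjusted p = 0.00201 in edgeR's quasi-likelihood test of the interaction, over 17175 genes). DIO2 fell with Aza in both genotypes, by 0.74 in KO and by 1.31 in WT cells. It read 116 and 209 CPM in untreated F4 and A12, 65.2 and 131 with Aza, 29.8 and 95.6 in untreated A7 and C4, and 11.8 and 38.7 in those clones with Aza. Each clone thus fell, and treated KO cells overlapped untreated WT (0.65, SE 0.76, adjusted p = 0.818). The interaction passed for 10 genes, 6 higher and 4 lower in KO cells, with 1491 at an unadjusted p under 0.05.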

How the results depend on the processing

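Counts of genes that passed are given as higher and lower. For treated KO against untreated WT (12 and 0), no filter on low counts gave 510 and 273, DESeq2 205 and 114, 8 libraries with a shared spread 64 and 55, and all 25 libraries in 13 groups, a choice made after seeing the data, 169 and 140. Untreated WT from 72 h gave 2 higher (IGFBP7 and WNT11), and from 72 h and 264 h together 345 and 189. Leaving out each clone gave 5 to 343 higher and 0 to 225 lower. For untreated KO against WT (22 and 12), the same 3 changes gave 727 and 386, 250 and 164, and 88 and 87, KO libraries of batch 2 gave 1236 and 807, and leaving out each clone gave 0 to 389 and 0 to 244. With KO of batch 2, HBQ1 reversed, at 0.495 (adjusted p = 0.0489) in place of -0.37. For Aza in KO (145 and 72), no filter gave 282 and 168, DESeq2 55 and 13, the 4 KO libraries alone 38 lower, and leaving out each clone 98 to 579 and 35 to 323. For Aza in WT (444 and 384), DESeq2 gave 147 and 92, and leaving out each clone 87 to 142 and 34 to 86. Without the replicate block, which here is the clone, 0 and 0 passed in KO and 0 and 0 in WT, with 402 and 784 at an unadjusted p under 0.05. In edgeR, 782 genes with no filter and 119 with 8 libraries lay on the untreated KO side of WT, and 1 gene, HBE1, lay past WT with no filter. These positions were not counted with DESeq2, which called HBE1 higher than WT after a start below it. The cause of these shifts was not tested. DESeq2's size factors kept 8 of the 12 genes, and DESeq2's test and the 8-library fit kept all 12. Over the genes named, 387 treated KO values under an alternative kept direction and side of the threshold, 31 gained it, 40 lost it and 28 moved without a test's call. Depth limits genes near 3 counts, such as CLC, EPX and PLPP4 in WT.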
